A study of Mus musculus with 48 samples.

Results

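Trp53, which encodes the mouse p53 protein, was followed with 7 other genes of its network, namely Mdm2, Mdm4, Ccng1, Zmat3, Trp53inp1, Sesn1 and Pmaip1. They are 8 of the 20171 genes of the deposited count table and were found there by symbol. The group was chosen on measured values: the recovery of Mdm4 RNA with Tnrc6a had been seen to differ between the Ago2 and Upf1 knockouts. That contrast is therefore described here without a test for any of the 8 genes, and Mdm4 has no test in either knockout against its tagged parent, in recovery or in the inputs that enter it.

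RNA immunoprecipitation with sequencing measured which RNAs HA magnetic beads recover from lysates of mouse embryonic stem cells, beside the RNA of the lysates (inputs). The protein on the beads was Tnrc6a, a GW182 protein that joins Argonaute, the carrier of microRNAs, to the enzymes that silence and degrade mRNA. All cells were 129S6/SvEvTac cells with the GFP_5xT71BS reporter (yGlob) and a stable FLAG-Cas9::T2A::Blasticidin transgene. The untagged cells carried nothing more, the tagged cells carried HA-AVI-Tnrc6a, and the knockouts were HA-AVI-Tnrc6a cells that were also Ago2-/- or Upf1-/-. No treatment was given, and cells were kept in medium with serum and LIF on gelatin. Each of the 16 combinations of 4 genotypes, input or immunoprecipitate (IP) and experiment 3 or 4 had 3 libraries from triplicate dishes, 48 in all. How many clones stood behind a genotype is not stated, so that a knockout and its clone cannot be told apart. P-values measure the spread between these dishes.

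p53 is a transcription factor that is kept at a low protein level by Mdm2, a ubiquitin ligase that marks it for destruction, and by the related Mdm4, which binds p53 and blocks its activating domain. Stress frees p53, and it then switches on genes of cell cycle arrest, repair, metabolism and death, Mdm2 among them, which closes a feedback loop. In embryonic stem cells activated p53 is known to lower Nanog and to favour differentiation, and several of its targets are known targets of microRNAs.

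In the GRCm38.p6 annotation all 8 genes are protein-coding genes. Trp53 lies at chr11:69580348-69591873, Mdm2 at chr10:117688875-117710758 and Mdm4 at chr1:132986105-133030587. Ccng1 lies at chr11:40748552-40755309, Zmat3 at chr3:32334792-32365665 and Trp53inp1 at chr4:11156441-11174379. Sesn1 lies at chr10:41810574-41908436. Mdm4 overlaps Gm29257 and Gm41953, Zmat3 overlaps 4930429B21Rik, and whether counting used the strand is not given in the sources used here. Trp53 and Mdm4 also have processed copies, Trp53-ps and Mdm4-ps, whose own counts summed to 0.301% and 0.776% of those of the parent genes over the 48 libraries. How far reads of these copies or of the overlapping genes enter the values of Trp53, Mdm4 and Zmat3 was not measured.

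In the RefSeq promoter table of GRCm38.p6, 7 windows of 5 of these genes were searched. Each ran from 250 bases before to 50 bases after a start site. Pmaip1 was left out of this search. The p53 half-site, a palindrome of 10 bases that reads the same on both strands, was found without mismatch in 4 windows, of Mdm2, Ccng1, Sesn1 and Trp53. It was in 8.36% of all 32851 windows of that table. Of these 4 windows, that of Ccng1 alone also held a pair of half-sites with at most 1 mismatch and at most 13 bases between them, which 0.627% of all windows hold. Neither of the windows of Mdm4 held an exact half-site, which says only that these letters are not in these windows. The 60 bases around each match are shown 5′ to 3′ on the strand of the gene, with the half-site in capitals. They are matches of letters only, and whether p53 binds there was not tested.
Mdm2 (chr10:117710910-117710969, minus strand): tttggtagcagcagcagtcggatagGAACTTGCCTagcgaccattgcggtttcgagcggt
Ccng1 (chr11:40755437-40755496, minus strand): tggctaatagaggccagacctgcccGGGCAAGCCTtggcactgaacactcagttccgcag
Sesn1 (chr10:41887241-41887300, plus strand): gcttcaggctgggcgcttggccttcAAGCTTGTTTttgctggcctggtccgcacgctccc
Trp53 (chr11:69580259-69580318, plus strand): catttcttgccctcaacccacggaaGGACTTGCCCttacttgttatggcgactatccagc

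The libraries held 11471544 to 73845953 counts, with replicate 3 of the experiment 4 IPs from Ago2 knockout cells the deepest, and the lowest count of any of the 8 genes in any library was 114, for Sesn1. Ago2 RNA was at 92.8 to 136 CPM (counts scaled to a common library size) in the inputs of Ago2 knockout cells and at 205 to 323 in those of tagged cells. Upf1 RNA was higher where the labels give a Upf1 knockout, with 122 to 142 CPM in the inputs against 74.4 to 99.6 in tagged cells, so those cells are called "labelled Upf1 knockout" throughout. Tnrc6a RNA was at 7686 to 58807 CPM in every IP of tagged genotypes and at 56.6 to 105 in those of untagged cells. All 8 stem cell markers examined were present in every input, with a summed level of 6238 to 8102 CPM. Of the other lineages, 4 of 5 endoderm markers were in the table, and they summed to 4.52 to 5.12 CPM in Ago2 knockout inputs, 13.9 to 20.6 in tagged inputs, 7.33 to 42.0 in inputs labelled Upf1 knockout and 6.88 to 23.5 in untagged inputs. Mesoderm, ectoderm and fibroblast markers summed to at most 17.1, 24.7 and 36.7 CPM in any input. The part of these cell types in the results below was not tested.

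Input levels per deposited gene length, in CPM per kilobase over the 24 inputs, put Trp53 first with a median of 80.6 (60.1 to 90.8). Ccng1 followed at 49.8 (30.3 to 74.7). Their ranges overlapped, as did those of each later pair of neighbours down to Trp53inp1. Pmaip1 had a median of 29.6 (13.6 to 40.4), Mdm4 one of 27.8 (22.5 to 33.1), Mdm2 one of 21.4 (17.5 to 28.4) and Trp53inp1 one of 19.2 (17.0 to 24.7). Zmat3 lay lower, at 11.8 (10.0 to 14.2), below the whole range of Trp53inp1. Sesn1 was lowest at 3.49 (2.55 to 4.94), beside a median of 3.35 over all genes, and its range did not reach that of Zmat3. In bulk samples fewer cells with an RNA and less RNA per cell cannot be told apart.

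**Figure D1:**
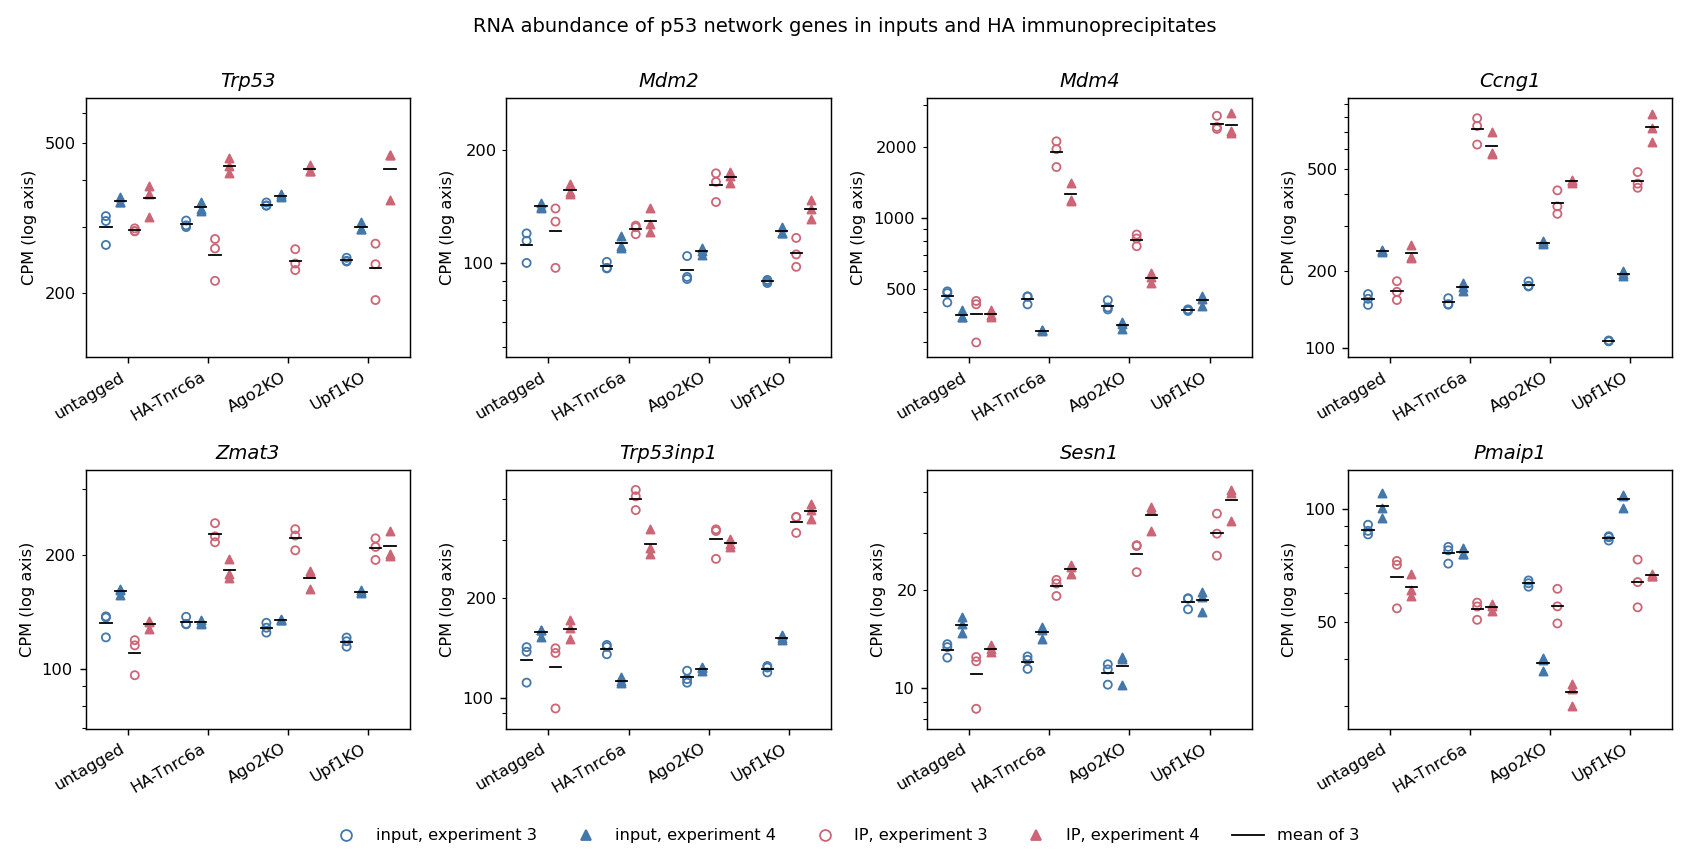
RNA abundance in CPM (log axis, scaled separately for each gene) of the 8 p53 network genes in the 48 libraries, by genotype; circles are experiment 3, triangles experiment 4, blue inputs, red IPs, and lines the mean of 3 libraries. Mdm4 IPs stand at 529.6 to 852 CPM without Ago2 and at 2274 to 2782 CPM in cells labelled Upf1 knockout, while its inputs lie between 333 and 490.5 CPM in every genotype.

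Mdm4 RNA was recovered with HA-Tnrc6a, less so without Ago2 and more so in cells labelled Upf1 knockout. In experiment 3 its IPs held 2105, 1951 and 1639.8 CPM in tagged cells, 852, 760.4 and 819.5 without Ago2, 2696, 2374 and 2419 in cells labelled Upf1 knockout and 299, 447 and 433 in untagged cells. In experiment 4 they held 1403, 1189.6 and 1183 CPM in tagged cells, 566, 529.6 and 584 without Ago2, 2782, 2321 and 2274 in cells labelled Upf1 knockout and 409.7, 389 and 383 in untagged cells. The 4 genotypes did not overlap in either experiment, and stood in the same order in both. Their inputs spread far less, over 406 to 490.5 CPM in experiment 3 and 333 to 469 in experiment 4.

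The ratio of mean IP to mean input CPM gives the same order for Mdm4. It was 0.834 and 1.01 in untagged cells (experiments 3 and 4), 4.17 and 3.75 in tagged cells, 1.90 and 1.58 without Ago2 and 6.10 and 5.46 in cells labelled Upf1 knockout. Every Mdm4 IP of Ago2 knockout cells lay above every input of those cells, which was not so in untagged cells. The log2 IP-over-input ratio, called recovery from here on, was lower in Ago2 knockout than in cells labelled Upf1 knockout by -1.77 ± 0.07 (SE), with -1.77 in each experiment. This value was used to choose the genes and has no test, and 0.275% of the 19962 genes fitted lay at or below it. It lies at -1.69 with library totals in place of TMM scaling and at -1.90 when IPs are compared without inputs. Experiment 3 fitted alone gives -1.67, where the fit of both experiments gave -1.77. Without replicate 1 of the labelled Upf1 knockout IPs of experiment 4 the value is -1.69.

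Mdm2, the partner and paralogue of Mdm4, did not share this pattern of values. Its IPs of experiment 3 held 125, 126 and 119.5 CPM in tagged cells, 173, 145 and 164 without Ago2 and 117, 106 and 97.96 in cells labelled Upf1 knockout. In experiment 4 they held 140.2, 121 and 128 CPM in tagged cells, 175, 163 and 170.2 without Ago2 and 148, 139.7 and 131 in cells labelled Upf1 knockout. The Ago2 knockout IPs were the highest of the 3 in both experiments and overlapped neither of the others. Its recovery in Ago2 knockout exceeded that in cells labelled Upf1 knockout by 0.44 ± 0.07, the opposite sign to Mdm4. Of the other genes in this contrast, Ccng1 was at -1.10 ± 0.07, Trp53 at -0.39 ± 0.09, Trp53inp1 at -0.08 ± 0.07 and Zmat3 at -0.07 ± 0.06. Pmaip1 was at 0.26 ± 0.08 and Sesn1 at 0.49 ± 0.11. The median of the 8 was -0.08 and that of all genes -0.03. Comparing IPs without inputs turned the sign of Trp53 to 0.0085, of Sesn1 to -0.20 and of Pmaip1 to -0.64. It also moved Ccng1 to -0.51 and Trp53inp1 to -0.27, while library totals brought Trp53inp1 to -0.0014 and Zmat3 to 0.014.

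Which of these RNAs the tag recovers was tested by comparing the recovery in tagged cells with that in untagged cells, the background of the beads. With edgeR's quasi-likelihood test and Benjamini-Hochberg adjustment over 19993 genes, 5 of the 8 were enriched and none was depleted, beside 29.8% of all genes enriched and 32.2% depleted. At an unadjusted p under 0.05 none was depleted either, nor with DESeq2. The median log2 enrichment was 0.93 over the 8 and -0.10 over all genes. Mdm4 and Ccng1 had the highest values of the group, 2.12 ± 0.10 (adjusted p = 1.18e-17) and 2.02 ± 0.08 (adjusted p = 6.8e-21). This is 4.35-fold and 4.05-fold above the background of the beads.

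Ccng1 encodes cyclin G1, a p53 target that brings a phosphatase to Mdm2. Its IPs of experiment 3 held 793, 739.8 and 626 CPM in tagged cells and 154, 166 and 183 in untagged cells. In experiment 4 they held 704, 575 and 577 CPM in tagged cells and 253, 224 and 227 in untagged cells. The groups were far apart in both experiments. Trp53inp1, a stress-induced p53 target that in turn promotes p53 activity, was enriched by 1.48 ± 0.11 (adjusted p = 4.67e-13). Its IPs held 271 to 425 CPM in tagged cells and 92.7 to 172 in untagged cells.

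Sesn1, a sestrin that restrains mTOR signalling, was enriched by 0.97 ± 0.10 (adjusted p = 5.15e-10), and its IPs held 19.1 to 23.8 CPM in tagged cells against 8.60 to 13.5 in untagged cells. Zmat3, a zinc finger protein that binds RNA, was enriched by 0.90 ± 0.07 (adjusted p = 6.27e-13), with 174 to 243 CPM in tagged IPs against 96.3 to 134 in untagged IPs. Neither gene's IPs overlapped between these genotypes. The other 3 genes did not pass. Mdm2 was at 0.14 ± 0.09 (adjusted p = 0.167), and passed at 0.19 (adjusted p = 0.0497) without replicate 2 of the untagged IPs of experiment 3. Pmaip1, which encodes the death-promoting protein Noxa, was at 0.09 ± 0.08 (adjusted p = 0.370), and Trp53 at 0.06 ± 0.08 (adjusted p = 0.478). Pmaip1 stood at -0.21 (adjusted p = 0.0119) when IPs were compared without inputs, and its IPs lay below its inputs in every genotype.

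Trp53 gave different values in the experiments, -0.26 ± 0.11 in experiment 3 and 0.39 ± 0.11 in experiment 4. The difference of 0.64 between them did not pass the test (adjusted p = 0.0507), nor did that of any other of the 8, beside 0.365% of all genes. Trp53 and Pmaip1 were under 0.05 before adjustment. In experiment 4 alone both passed the test of enrichment, at 0.33 (adjusted p = 0.00117) and 0.21 (adjusted p = 0.0391).

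**Figure D2:**
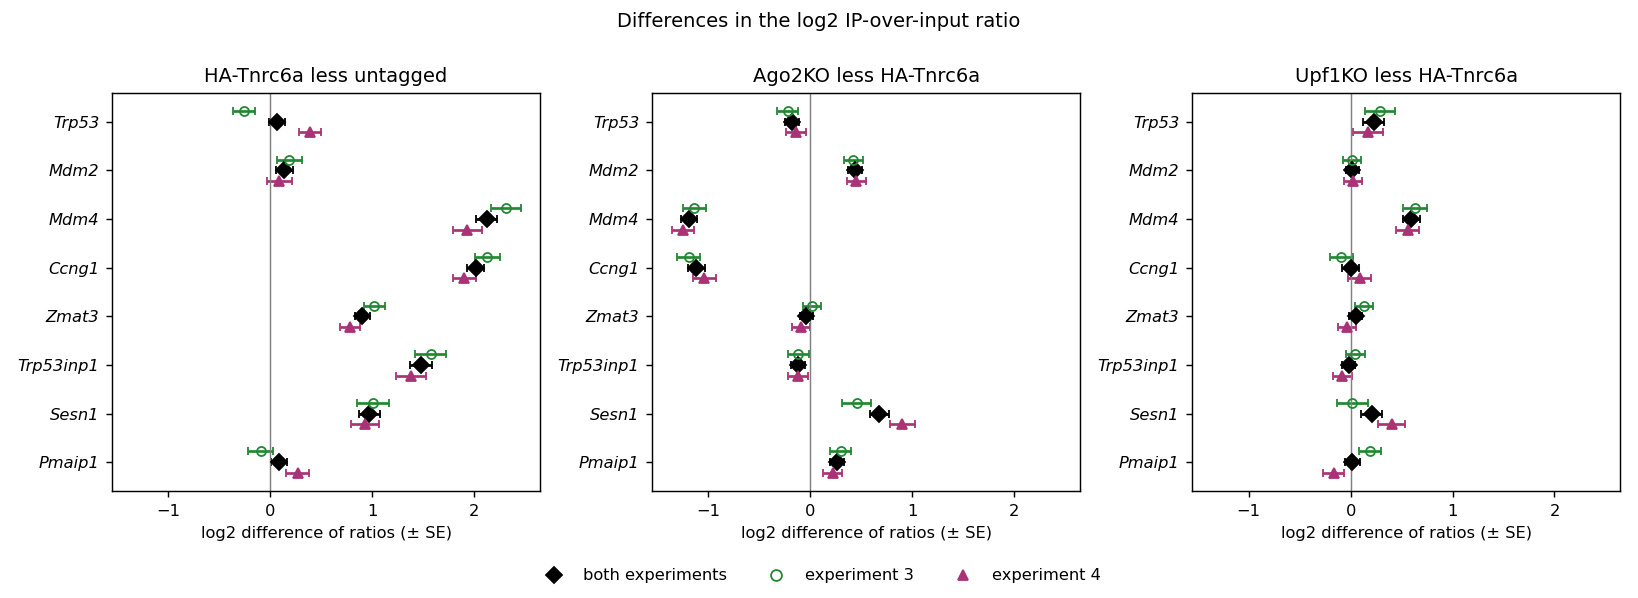
Differences in log2 IP-over-input ratio for the 8 genes, for tagged less untagged cells, Ago2 knockout less tagged and labelled Upf1 knockout less tagged; diamonds average both experiments, circles are experiment 3, triangles experiment 4, and bars are ± SE. Mdm4 lies at 2.12, -1.19 and 0.60 from left to right, and Ccng1 at 2.02 and -1.12 in the first 2 panels and near 0 in the last.

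Whether recovery depends on Ago2 was asked by comparing Ago2 knockout with tagged cells. This comparison and the next use the tagged libraries that also entered the enrichment above, so their values are set side by side and not as independent results. Of the 7 genes tested, 3 rose (9.09% of 19995 genes did), 1 fell and 3 did not pass. The 1 that fell is a share near the 12.3% of all genes. Of those that rose, Mdm2 and Pmaip1 had not passed the test of enrichment with the tag. The median of all 8 genes, Mdm4 included, was -0.08 and that of all genes -0.04. Mdm4, described without a test, was at -1.19 ± 0.08, with -1.14 in experiment 3 and -1.25 in experiment 4.

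Ccng1 fell by 1.12 ± 0.08 on the log2 scale (adjusted p = 4.99e-13), to 0.461 of the recovery in tagged cells, at -1.19 ± 0.11 in experiment 3 and -1.04 ± 0.11 in experiment 4. Its Ago2 knockout IPs held 414, 335 and 358 CPM in experiment 3 and 454, 450.2 and 443 in experiment 4, all below the tagged IPs of the same experiment. Compared without inputs, the fall was smaller, at -0.68 (adjusted p = 1.66e-07). Its ratio of IP to input was 2.08 and 1.74 in Ago2 knockout cells, 4.76 and 3.57 in tagged cells and 1.08 and 0.978 in untagged cells. Its inputs moved the other way in this genotype, as given below.

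Sesn1 rose by 0.68 ± 0.10 (adjusted p = 1.35e-06). Its Ago2 knockout IPs held 27.3, 22.7 and 27.4 CPM in experiment 3 and 30.5, 36.0 and 35.1 in experiment 4. The tagged IPs, at 20.9, 19.1 and 21.5 and at 22.3, 23.8 and 23.4 CPM, lay below them in each experiment. In experiment 3 alone the rise was 0.43 and did not pass (adjusted p = 0.0771). Mdm2 rose by 0.44 ± 0.07 (adjusted p = 6.15e-06), with 0.42 in experiment 3 and 0.45 in experiment 4, and its IP values are given above.

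Pmaip1 rose by 0.26 ± 0.07 (adjusted p = 0.00653). Its IPs themselves were not higher: they held 61.4, 55.1 and 49.7 CPM in Ago2 knockout and 55.1, 50.8 and 56.4 in tagged cells in experiment 3, which overlap, and 33.3, 30.1 and 34.4 against 53.6, 56.0 and 55.4 in experiment 4. Without inputs the sign turned, to -0.33 (adjusted p = 0.000161), and neither experiment alone passed (adjusted p = 0.153 and 0.0591). Its inputs were also lower in this genotype, as given below. Trp53 was at -0.18 ± 0.07 (adjusted p = 0.0596). It passed at -0.19 with RLE size factors (adjusted p = 0.0378) and with DESeq2 (adjusted p = 0.0134). With a term for the replicate number in the edgeR fit it passed at -0.18 (adjusted p = 0.0378). It also passed at -0.23 (adjusted p = 0.00264) without replicate 1 of the tagged IPs of experiment 3, at -0.20 (adjusted p = 0.0338) without replicate 1 of those of experiment 4, and at -0.21 (adjusted p = 0.0328) without replicate 3 of the Ago2 knockout IPs of experiment 3. When IPs were compared without inputs it lay at -0.0086, next to no difference. Trp53inp1 was at -0.12 ± 0.07 (adjusted p = 0.252), and passed at -0.17 (adjusted p = 0.0444) when IPs were compared without inputs. Zmat3 was at -0.04 ± 0.06 (adjusted p = 0.715). Both had been enriched with the tag. The difference between experiments passed for none of the 7 genes, beside 0.195% of all genes, and Sesn1 was under 0.05 before adjustment.

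Whether recovery changed in cells labelled Upf1 knockout was asked in the same way. None of the 7 genes tested passed, beside 2.92% of 19966 genes higher and 1.57% lower. With edgeR, Trp53 and Sesn1 were under an unadjusted p of 0.05, and with DESeq2 Trp53 was, with none past the adjusted threshold in either. Over all genes the share of calls that were higher was 65.1% with TMM, 52.8% with RLE size factors, 55.8% with DESeq2 and 22.4% with library totals. Mdm4, described without a test, was at 0.60 ± 0.08, with 0.63 in experiment 3 and 0.56 in experiment 4, and at 0.50 without replicate 1 of the labelled Upf1 knockout IPs of experiment 4.

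Trp53 was at 0.23 ± 0.10 (adjusted p = 0.260) and Sesn1 at 0.21 ± 0.10 (adjusted p = 0.293). The other 5 genes, Ccng1 among them, lay between -0.02 and 0.05. Sesn1 IPs held 29.8, 25.5 and 34.3 CPM in experiment 3 and 32.5, 39.8 and 40.7 in experiment 4, all above the tagged IPs, but its inputs were also higher. Compared without inputs, 3 of the 7 passed, namely Sesn1 at 0.64 (adjusted p = 1.89e-06), Pmaip1 at 0.28 (adjusted p = 0.00133) and Ccng1 at -0.20 (adjusted p = 0.0418). The difference between experiments passed for none of the 7, beside 0.115% of all genes, and Pmaip1 was under 0.05 before adjustment.

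RNA levels in the lysates were compared between the inputs of each genotype. The inputs of Mdm4 in the knockouts are part of the recovery on which the genes were chosen, so they are described without a test. In Ago2 knockout inputs 2 of the 7 genes tested were higher and 3 lower than in tagged inputs, beside 15.7% and 15.2% of 19641 genes. Ccng1 was higher by 0.40 ± 0.03 (adjusted p = 7.23e-17). Its inputs held 174, 175 and 182 CPM against 157, 149 and 148 in experiment 3 and 262, 255 and 257 against 167, 174 and 179 in experiment 4, with no overlap. Trp53 was higher by 0.14 ± 0.02 (adjusted p = 9.02e-06), a call that was lost with all 48 libraries in 1 fit (adjusted p = 0.103).

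Pmaip1 fell by 0.62 ± 0.03 (adjusted p = 9.98e-20) on the log2 scale. Its inputs held 62.2, 63.5 and 64.6 CPM against 77.7, 71.6 and 79.3 in tagged cells in experiment 3. In experiment 4 they held 37.2, 40.3 and 39.6 against 75.9, 75.7 and 78.6. They were lower in both, and further apart in experiment 4. Sesn1 fell by 0.24 ± 0.07 (adjusted p = 0.00650), and in experiment 3 alone was at -0.12 and did not pass (adjusted p = 0.530). Trp53inp1 fell by 0.08 ± 0.03 (adjusted p = 0.0177), with -0.29 in experiment 3 and 0.12 in experiment 4. It did not pass without replicate 1 or replicate 2, respectively, of the tagged inputs of experiments 3 and 4 (adjusted p = 0.0592 and 0.0536), nor without replicate 2 of the Ago2 knockout inputs of experiment 3 (adjusted p = 0.0714). With all 48 libraries in 1 fit it did not pass either (adjusted p = 0.395).

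Mdm2 inputs were at -0.06 ± 0.03 (adjusted p = 0.187), and passed at -0.08 (adjusted p = 0.0251) without replicate 3 of the Ago2 knockout inputs of experiment 3. Zmat3 was at -0.02 ± 0.03 (adjusted p = 0.712). Mdm4, described without a test, was at -0.01 ± 0.03, beside -1.19 for its recovery. For Ccng1 the 2 measures had opposite signs, as they did for Trp53, Mdm2, Sesn1 and Pmaip1. Mdm4, Zmat3 and Trp53inp1 had the same sign in both measures when averaged over the experiments. Their inputs, however, had opposite signs in experiments 3 and 4. Mdm4 was at -0.09 and 0.07, Zmat3 at -0.05 and 0.02 and Trp53inp1 at -0.29 and 0.12. The averages of Mdm4 and Zmat3 also lay within 1 SE of 0, so their shared sign is no result. The same inputs enter recovery with a minus sign, so opposite signs are partly built in. The Ccng1 IPs were also lower when compared without inputs, as given above. The difference between experiments passed for 3 of the 7 tested, Ccng1, Trp53inp1 and Pmaip1, beside 5.94% of all genes.

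In inputs labelled Upf1 knockout, 3 of the 7 genes tested were higher and 2 lower than in tagged inputs, beside 29.5% and 29.0% of 19444 genes. Sesn1 was higher by 0.47 ± 0.06 (adjusted p = 2.42e-09). Its inputs held 17.4, 18.8 and 18.8 CPM against 12.2, 11.4 and 12.5 in tagged cells in experiment 3, and 17.1, 19.7 and 19.0 against 15.3, 14.2 and 15.1 in experiment 4. They were above the tagged inputs in both. Pmaip1 was higher by 0.30 ± 0.03 (adjusted p = 3.83e-12), and Trp53 fell by 0.24 ± 0.02 (adjusted p = 4.76e-13). Both had 1 sign in the 2 experiments, Pmaip1 at 0.13 and 0.48 and Trp53 at -0.32 and -0.16 in experiments 3 and 4.

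For the other genes the experiments had opposite signs. Mdm4, described without a test, was at 0.14 ± 0.02 over both, but stood at -0.16 ± 0.03 in experiment 3 and 0.44 ± 0.03 in experiment 4. Its inputs held 409.7, 412 and 406 CPM against 467, 466 and 433 in experiment 3, and 456, 426 and 469 against 338, 336 and 333 in experiment 4. They were thus below the tagged inputs in one experiment and above them in the other. Trp53inp1, called higher at 0.12 ± 0.03 (adjusted p = 0.00014), stood at -0.21 and 0.44, and was not called with all 48 libraries in 1 fit (adjusted p = 0.130). Ccng1, called lower at -0.16 ± 0.03 (adjusted p = 4.86e-07), stood at -0.51 and 0.19. Zmat3, at 0.05 ± 0.03 (adjusted p = 0.103), stood at -0.19 and 0.28, and Mdm2, at -0.01 ± 0.03 (adjusted p = 0.759), at -0.14 and 0.12. The difference between experiments passed for 6 of the 7 genes tested, all but Sesn1, beside 11.6% of all genes. The average over both experiments therefore describes neither for these 5 genes. Which columns belong to which experiment was inferred from their numbers.

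**Figure D3:**
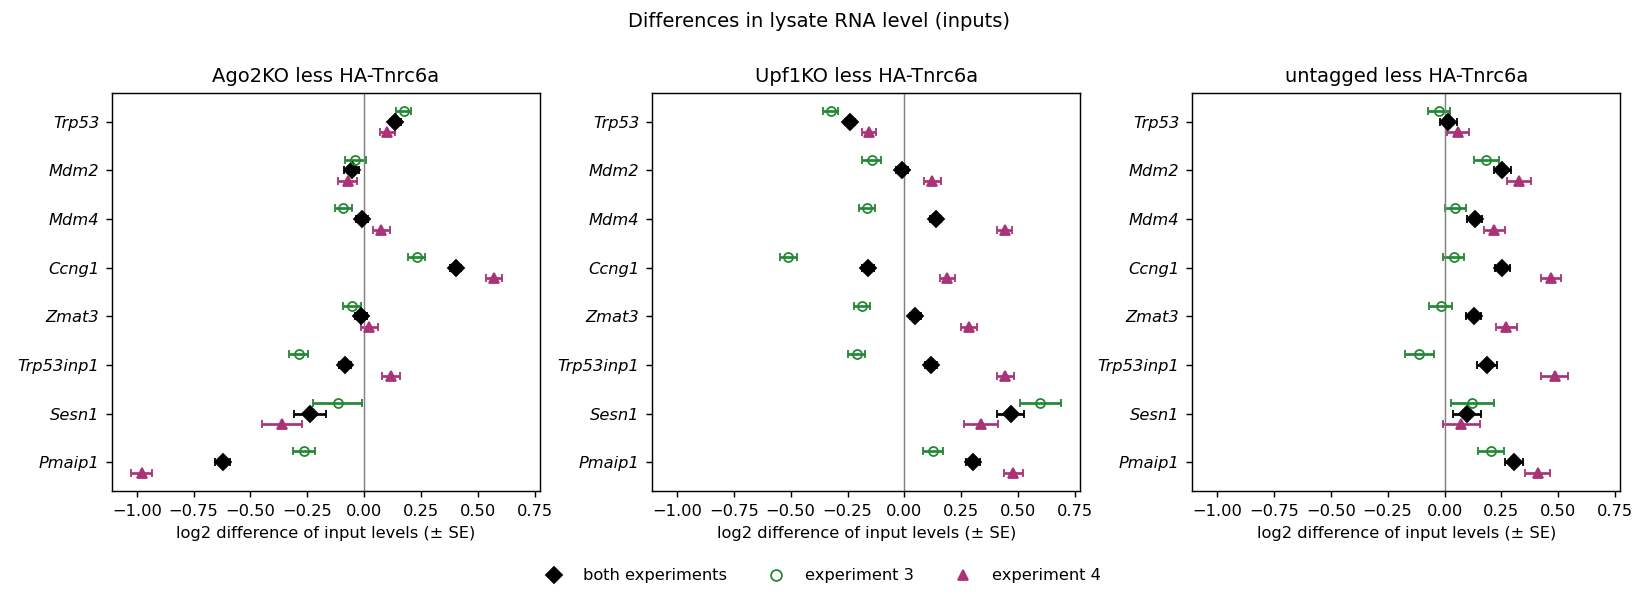
Differences in log2 input level for the 8 genes, for Ago2 knockout, labelled Upf1 knockout and untagged inputs, each less tagged inputs; diamonds average both experiments, circles are experiment 3, triangles experiment 4, and bars are ± SE. In the middle panel the circles and triangles of Mdm2, Mdm4, Ccng1, Zmat3 and Trp53inp1 lie on opposite sides of 0.

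Untagged inputs were compared with tagged inputs, the comparison that shows whether the tagged line itself differs in RNA level. Here 6 of the 8 genes were higher and none lower in untagged cells, beside 7.67% of 19407 genes higher and 7.74% lower. None was lower at an unadjusted p under 0.05 or with DESeq2 either. Pmaip1 was higher by 0.31 ± 0.04 (adjusted p = 2.2e-06), Mdm2 by 0.25 ± 0.04 (adjusted p = 2.27e-05) and Ccng1 by 0.25 ± 0.03 (adjusted p = 2.16e-06). Trp53inp1 was higher by 0.19 ± 0.04, Mdm4 by 0.13 ± 0.03 and Zmat3 by 0.13 ± 0.03 (adjusted p = 0.00442, 0.00617 and 0.0105). The calls of Mdm4 and Zmat3 were lost with all 48 libraries in 1 fit (adjusted p = 0.194 and 0.0832). Sesn1 was at 0.10 ± 0.06 (adjusted p = 0.328) and Trp53 at 0.02 ± 0.04 (adjusted p = 0.806).

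These calls rest on experiment 4. In experiment 3 alone edgeR called none of the 8, and Mdm2 at 0.18 and Pmaip1 at 0.20 were under an unadjusted p of 0.05. Replicate 1 of the untagged inputs of experiment 3 lay low for Mdm2 (100.3 CPM beside 120.1 and 114.8) and Trp53inp1 (110.9 beside 142.0 and 137.5), but not for Pmaip1. Without it, calls over all genes in both experiments went from 1488 higher and 1502 lower to 2156 and 1995. Its part in the result of experiment 3 alone was not tested. The difference between experiments passed for 3 of the 8, Ccng1, Zmat3 and Trp53inp1, beside 3.40% of all genes, in a test added after the data were seen. In experiment 4 Ccng1 inputs held 239.8, 237 and 243 CPM in untagged cells against 167, 174 and 179 in tagged cells. In experiment 3 they held 148, 163 and 156 against 157, 149 and 148, which overlap. Pmaip1 inputs, in contrast, were higher in untagged cells in both, at 87.5, 85.5 and 90.8 CPM against 77.7, 71.6 and 79.3 in experiment 3 and 94.9, 100.4 and 110.4 against 75.9, 75.7 and 78.6 in experiment 4.

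The wider pathway was read from a list of 42 further p53 targets and a list of 35 regulators and partners of p53, neither of which holds any of the 8 genes. The genes named from them are called, have 1 sign in both experiments and a mean level (log2 CPM) of at least 3, so a gene of lower level can lie further out than those given as highest or lowest. Of 41 targets tested for enrichment with the tag, 26 were higher, 7 lower and 8 not called, with a median of 0.74, beside 29.8% of all genes higher, 32.2% lower and a median of -0.10. The highest were Cdkn1a, the p21 inhibitor of cyclin-dependent kinases, at 5.80 ± 0.11 (adjusted p = 9.77e-28), Ier5 at 4.27 ± 0.15 and Btg2, an antiproliferative partner of the deadenylase complex, at 4.13 ± 0.10. The lowest were Ddb2, which recognises damaged DNA, at -0.89 ± 0.12, Ephx1 at -0.74 ± 0.14 and Sfn at -0.63 ± 0.10. Of 35 regulators 11 were higher, a share near that of all genes, 17 lower and 7 not called, with a median of -0.17. The kinase genes Hipk2 at 1.76 ± 0.10, Csnk1a1 at 1.71 ± 0.08 and Chek2 at 1.31 ± 0.06 were highest. Trp53bp1 at -1.12 ± 0.23 and the ribosomal protein genes Rpl11 at -1.01 ± 0.09 and Rpl5 at -0.998 ± 0.075, whose products bind Mdm2, were lowest.

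In Ago2 knockout recovery 8 of 41 targets were higher and 8 lower, with a median of 0.04, beside 9.09% of all genes higher, 12.3% lower and a median of -0.04. Gdf15 was at 1.05 ± 0.12, Ier5 at 0.94 ± 0.15 and Gadd45a, a stress-induced growth arrest gene, at 0.60 ± 0.10. Ei24 was at -0.76 ± 0.09, Pidd1 at -0.61 ± 0.07 and Sesn2, the paralogue of Sesn1, at -0.50 ± 0.08. Sesn1 and Sesn2 thus moved in opposite directions, each with the same sign in both experiments. Of 35 regulators 10 were higher and 5 lower, the latter a share near that of all genes, with a median of 0.13. The DNA damage kinases Atr at 0.67 ± 0.16 and Prkdc at 0.49 ± 0.13 and the phosphatase Ppm1d at 0.43 ± 0.08 were highest, and Sirt1 at -0.31 ± 0.07, Csnk1a1 at -0.27 ± 0.08 and Rpl5 at -0.27 ± 0.08 lowest. Ppm1d stood at 0.12 and 0.74 and Sirt1 at -0.49 and -0.13 in experiments 3 and 4. The other regulators named here lay closer together in the 2 experiments.

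In recovery in cells labelled Upf1 knockout, 1 of 40 targets was higher, Pidd1 at 0.55 ± 0.08 (adjusted p = 2.71e-05), and none lower, with a median of 0.03, beside 2.92% of all genes higher and 1.57% lower. Of 35 regulators 2 were higher, the deacetylase Sirt1 at 0.43 ± 0.07 (adjusted p = 7.98e-05) and Ppp1r13l, an inhibitor of p53, at 0.36 ± 0.10 (adjusted p = 0.0331), and none lower. Pidd1 and Sirt1 were lower in Ago2 knockout recovery and higher here, the order of signs that Mdm4 showed. Their values in the 2 comparisons share the tagged libraries.

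In the inputs of both knockouts the targets moved both ways, as all genes did. In Ago2 knockout 11 of 41 were higher and 13 lower, beside 15.7% and 15.2% of all genes. Ei24 was at 0.50 ± 0.03, Tigar at 0.31 ± 0.03 and Pml at 0.28 ± 0.03, while Sfn was at -0.48 ± 0.05, Dusp4 at -0.47 ± 0.09 and Ddit4 at -0.43 ± 0.05. Sizes differed between experiments 3 and 4 for Tigar (0.46 and 0.16) and Pml (0.52 and 0.04). The same held for Sfn (-0.21 and -0.76) and Ddit4 (-0.71 and -0.15), less so for Ei24 (0.44 and 0.56) and Dusp4 (-0.49 and -0.46). In inputs labelled Upf1 knockout 18 of 40 were higher, beside 29.5% of all genes, and 10 lower, a share near their 29.0%. Gdf15, a stress-induced cytokine, was at 0.73 ± 0.08, Pml at 0.72 ± 0.03 and Ddit4 at 0.64 ± 0.04, while Perp was at -0.46 ± 0.10, Sfn at -0.41 ± 0.05 and Gtse1 at -0.17 ± 0.03. Here too sizes differed between experiments 3 and 4. Gdf15 was at 0.63 and 0.82, Pml at 0.94 and 0.50 and Ddit4 at 0.26 and 1.02. Perp was at -0.73 and -0.18, Sfn at -0.62 and -0.19 and Gtse1 at -0.31 and -0.03. In untagged inputs 16 of 40 targets were higher and 2 lower, with a median of 0.11, beside 7.67% of all genes higher, 7.74% lower and a median of 0.0012. Perp at 0.66 ± 0.09, Bbc3, which encodes the death-promoting protein Puma, at 0.43 ± 0.05 and Sfn at 0.35 ± 0.06 were among them. Of 34 regulators, 9 were higher and 4 lower in Ago2 knockout inputs, the latter a share near the 15.2% of all genes. In inputs labelled Upf1 knockout 9 were higher and 14 lower, beside 29.5% and 29.0% of all genes, and in untagged inputs 5 were higher and 2 lower, beside 7.67% and 7.74%.

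The genes whose recovery followed that of Mdm4 most closely were sought over the 8 combinations of genotype and experiment, by Pearson's r of the log2 IP-over-input ratio, among 2359 genes with enough signal and spread. They were Prkx (r = 0.991), Morf4l1-ps1 (r = 0.989), Gm15784 (r = 0.989), Rims1 (r = 0.989) and Nacc1 (r = 0.987). Prkx, a protein kinase gene, had ratios of 2.72 and 2.22 in tagged cells, 1.51 and 1.21 without Ago2 and 3.10 and 3.01 in cells labelled Upf1 knockout, each on the log2 scale, in experiments 3 and 4. In untagged cells it had -0.03 and 0.04. The others rose less in cells labelled Upf1 knockout. Morf4l1-ps1 had 1.47 and 1.48 there beside 1.35 and 1.37 in tagged cells, and Nacc1 2.14 and 1.94 beside 1.97 and 1.69. Rims1 had 2.12 and 1.79 beside 1.90 and 1.56, and Gm15784 2.07 and 1.83 beside 1.73 and 1.53. The 8 points share libraries and sequencing depth with those of Mdm4, so these r values describe the likeness and carry no test. None of the other 7 p53 network genes was among the 5. Ccng1, Trp53inp1 and Sesn1 met the limits on level and spread, so they were searched and had a lower r than these 5. The limit on spread kept genes with flatter ratios out of the search, and for those the absence is no result.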

How the data were processed

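The authors deposited 1 table of raw counts per gene and library, without normalization, for 20171 genes. Per the submitters' processing notes, bcl2fastq 2.20, STAR 2.7.3a and the builds GRCm38 and mm10 were used; the counting tool and strand setting are not given in the sources used here. A further 48 deposited value columns, headed RPKM, were not used. Gene length in bases per the file headers served only for levels per kilobase. Columns numbered 1 to 3 were taken as experiment 3 and 4 to 6 as replicates 1 to 3 of experiment 4; this is inferred.

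Counts were fitted over all genes with edgeR 4.0.16 (limma 3.58.1, R 4.3.3): TMM scaling, filterByExpr with a minimum count of 10, a robust quasi-likelihood fit with 1 coefficient per group, and only the groups compared. All 8 genes passed the filter in every comparison. Contrasts were averaged over the 2 experiments and tested two-sided with the quasi-likelihood F-test, Benjamini-Hochberg adjusted over all genes tested, with a threshold of 0.05. The difference between experiments was tested as an interaction in 6 comparisons, that of untagged inputs added after the data were seen. A planned test of Mdm4 in the knockout inputs was dropped, since those inputs enter the recovery on which the genes were chosen. CPM values are counts scaled by TMM over all 48 libraries. Errors are between dishes; without molecular identifiers, reads do not count molecules.

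The 8 genes, both pathway lists and the tests were chosen with earlier results of these data known. The text names all 8 genes, and of the pathway lists at most 3 rising and 3 falling in each comparison, taken by size of change among those called with 1 sign in experiments 3 and 4 and a mean level (log2 CPM) of 3 or more. Genes like Mdm4 are the 5 with the highest r that had such a level and a spread of ratios at least 0.5 that of Mdm4. Gene positions and promoters are from RefSeq tables of GRCm38.p6, matched by symbol. Positions were matched for 8 genes, and promoter windows of 5 were searched, with Pmaip1 left out. MicroRNA seed matches were not analysed here. Alternatives were RLE size factors, library totals, no count filter, DESeq2 1.42.0, a replicate block, such a block within each genotype (added after the data were seen, for recovery only), each experiment alone, IPs without inputs, all 48 libraries in 1 fit and leaving out each library in turn.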

Additional observations from a re-analysis of the deposited data

Results flagged for a closer look

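In 12 cases the change of an input level differed between the experiments by the test of that difference (edgeR quasi-likelihood F-test, Benjamini-Hochberg adjusted over all genes; values are experiment 4 less experiment 3 on the log2 scale). In Ago2 knockout against tagged inputs the difference was 0.34 for Ccng1, 0.41 for Trp53inp1 and -0.71 for Pmaip1. Trp53inp1 changed sign between the experiments, while Ccng1 was higher and Pmaip1 lower in both. In inputs labelled Upf1 knockout it was 0.17 for Trp53, 0.27 for Mdm2, 0.70 for Ccng1, 0.47 for Zmat3, 0.65 for Trp53inp1 and 0.35 for Pmaip1. In untagged inputs, in a test added after the data were seen, it was 0.43 for Ccng1 (adjusted p = 0.000201), 0.29 for Zmat3 (adjusted p = 0.0160) and 0.59 for Trp53inp1 (adjusted p = 0.000253). The 6 genes of inputs labelled Upf1 knockout and the 3 of untagged inputs lay higher in experiment 4, relative to the tagged inputs of the same experiment. All 3 genotypes are set against the same tagged inputs, so the values are not independent.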

How the results depend on the processing

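Counts of the 8 genes called kept within 1.5 times of those reported under every alternative run except 4. In experiment 3 alone Ago2 knockout recovery called 2 (not 4) and untagged inputs called 0 (not 6). Without inputs, recovery in cells labelled Upf1 knockout called 3 (not 0). With all 48 libraries in 1 fit, Ago2 knockout inputs called 3 (not 5); this fit also lost Trp53inp1 in inputs labelled Upf1 knockout and Mdm4 and Zmat3 in untagged inputs. Leaving out 1 library in turn gave 5 to 6 for the enrichment, 4 to 5 and 0 to 0 for the recoveries in Ago2 and labelled Upf1 knockout, and 4 to 6, 5 to 5 and 6 to 6 for the inputs of Ago2 knockout, labelled Upf1 knockout and untagged cells. The labels do not say what replicate numbers share, and the check for pairing did not meet its criterion of 0.1 in every pair: deviations of same-numbered libraries correlated at 0.0687 on average over 168 pairs (-0.292 to 0.682), and those of same-numbered inputs and IPs of 1 genotype at 0.105 over 24 pairs (-0.0609 to 0.515). As a hint of pairing from the data, 37 of 48 libraries correlated best with their own number, out of 3 numbers each. The main fits treat the libraries as unpaired. The replicate block gave 5, 5 and 0 for the enrichment and the recoveries and 5, 5 and 6 for the inputs; under it Trp53 in Ago2 knockout recovery passed at -0.18 (adjusted p = 0.0378), and no other call of the 8 genes changed. A replicate block within each genotype, chosen after seeing the data, gave 5, 4 and 0 for the enrichment and the recoveries and changed no call.

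Of 1568 values of single genes under alternatives, 1506 kept their side of the threshold or moved by less than 1 SD, 16 lost and 17 gained a call, 16 moved and 13 changed sign. A change of sign of a value not called under either setting was not counted. Without inputs the sign changed for Pmaip1 in the enrichment (-0.21) and in Ago2 knockout recovery (-0.33), and between the knockouts for Trp53 (0.0085), Sesn1 (-0.20) and Pmaip1 (-0.64). In 1 experiment alone it changed for Ago2 knockout inputs of Trp53inp1 (0.12) in experiment 4. In inputs labelled Upf1 knockout it changed in experiment 3 for Mdm4 (-0.16), Zmat3 (-0.19) and Trp53inp1 (-0.21) and in experiment 4 for Mdm2 (0.12) and Ccng1 (0.19). In untagged inputs it changed in experiment 3 for Zmat3 (-0.020) and Trp53inp1 (-0.11). Fits with fewer libraries or more genotypes estimate the spread anew; otherwise the cause was not tested. Library totals moved the median of all genes by -0.16 in the enrichment. Each group had 3 dishes, and the lowest count of any of these genes in a library was 114, for Sesn1. Whether depth limited the calls was not tested.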
